A study of Homo sapiens with 6 samples.

Results

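The SOX transcription factors examined here are 7 genes, SOX2, SOX4, SOX8, SOX9, SOX12, SOX13 and SOX15, taken by symbol from a table of 36651 genes, in which all 7 are listed. They were chosen by name with the FPKM levels and the siMTA1 differences of these libraries known, so what is said of their own difference between the groups is a description. PolyA RNA was sequenced from HCT116, an epithelial cell line from a human colorectal carcinoma, as 3 samples labelled siMTA1 and 3 control samples. The treated samples are named siMTA in their descriptions and CrMTA1 in their titles, so whether RNA interference or a change in the genome lowered MTA1 is uncertain. The other group is control by its descriptions and WT by its titles, with no word on whether it received a control RNA. No label states that the 3 samples of a group came from separate cultures, so a p-value reflects the spread of these samples alone, and that spread may be technical.

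SOX proteins bind DNA through an HMG box, a domain that bends the helix at short AT-rich sites, and they usually act together with partner factors. They are sorted into groups by the similarity of that box. SOX9 is known in the intestine from crypt progenitor cells and Paneth cells and is needed for Paneth cells to form. SOX4 is known from progenitor states and from TGF-beta responses in epithelial tumours. MTA1 belongs to NuRD, a chromatin complex with remodelling and histone deacetylase activity, and the comparison asks which transcripts differ where it is lowered.

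The level of MTA1 was 44.55, 43.98 and 47.97 FPKM in siMTA1 libraries 1, 2 and 3, against 65.9, 67.61 and 66.74 FPKM in control libraries 1, 2 and 3. FPKM is fragments per kilobase of gene and per mapped total of the library. The siMTA1 mean was 68.2% of the control mean (log2 fold change −0.54, SE 0.06, limma adjusted p = 0.000376), and the exact two-sided permutation test gave p = 0.1, which is the lowest possible with 3 libraries a group. Steps among the low values of short genes implied a depth of 57600000 to 67000000 fragments in siMTA1 libraries and 43400000 to 65300000 in control libraries. EPCAM, CDH1, KRT8, KRT18 and KRT19, markers of epithelium, all stood above 27 FPKM in every library, whereas the enterocyte gene VIL1 was at 0.00 to 0.04 FPKM. Of the 6 epithelial markers tested, CDH1 was higher (log2 fold change 0.27, adjusted p = 0.00874) and KRT8 (−0.29, adjusted p = 0.0148) and KRT18 (−0.25, adjusted p = 0.0336) were lower with siMTA1, where 18.2% of all tested genes passed, 6.13% higher and 12.1% lower. The KRT8 call ended without control library 2 (adjusted p = 0.0632), and the KRT18 call without siMTA1 library 1 or 2 (0.0966 and 0.0748) and control library 2 or 3 (0.118 and 0.0785). The KRT18 call also ended under upper-quartile scaling (0.0767) and median centring (0.0855). Of the 14 markers of other cell types in the table, 2 were tested, COL1A1 and ACTA2, and their list summed to 11.1 to 11.6 FPKM in siMTA1 libraries and 12.5 to 13.5 FPKM in control libraries. COL1A2, COL3A1 and CDH5 did not exceed 0.01 FPKM. ACTA2, smooth muscle actin, was lower with siMTA1 (log2 fold change −0.32, adjusted p = 0.00823). COL1A1, a fibrillar collagen gene, was at 2.13, 2.65 and 2.33 FPKM in siMTA1 libraries 1, 2 and 3, against 1.9, 1.79 and 1.97 FPKM in control libraries 1, 2 and 3, and did not pass (log2 fold change 0.22, adjusted p = 0.0671). The part of these markers in the values below was not tested.

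SOX4 was the member whose groups stood apart, and SOX9, the most abundant, stayed within its own spread. The order of levels, which FPKM allows because it is scaled to length, was the same in all 6 libraries: SOX9, SOX4, SOX12, SOX13, SOX8, SOX15 and SOX2 from high to low. No neighbours in this order overlapped over the 6 libraries. SOX9 ranked 1226th by mean level in the table of 36651 genes and SOX4 ranked 2361st. In these bulk samples fewer cells with a transcript and less of it per cell cannot be told apart.

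**Figure D1:**
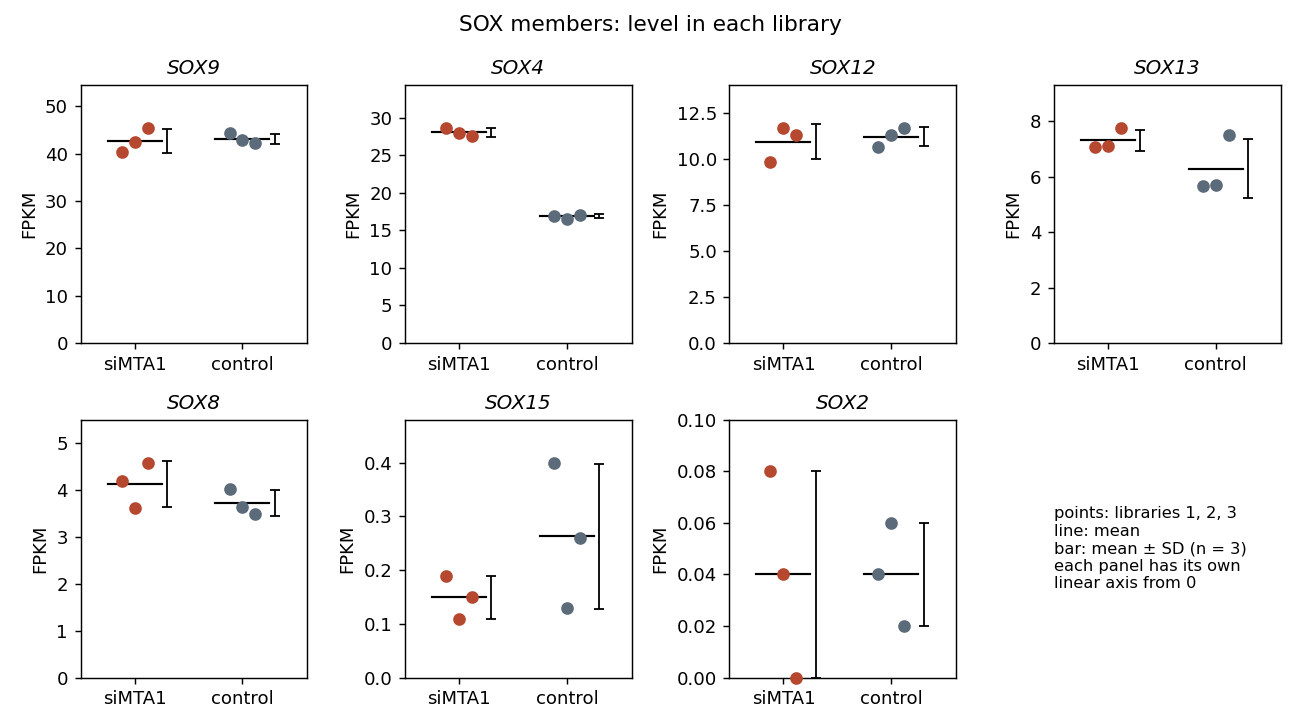
Level in FPKM of each of the 7 SOX members, with siMTA1 libraries left and control libraries right. Points are libraries, lines are means, bars are mean ± SD (n = 3), and each panel has its own linear axis from 0. SOX4 lies at 27.55 to 28.63 FPKM with siMTA1 and at 16.56 to 17.10 FPKM in control, while the groups of the other 6 genes overlap.

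SOX4 and SOX12 belong to the SOXC group, transcriptional activators known from progenitor cells. SOX4 (ENSG00000124766.5) is annotated in GENCODE 29 (GRCh38) on chromosome 6, 21592768 to 21598619, plus strand. It was at 28.63, 27.89 and 27.55 FPKM in siMTA1 libraries 1, 2 and 3, against 16.93, 16.56 and 17.1 FPKM in control libraries 1, 2 and 3. Every siMTA1 library was above every control library, and the 3 values of each group lay close together. The ratio of means was 1.66, and the log2 fold change of 0.70 (SE 0.05, 95% interval 0.58 to 0.82) ranked 41st from the top among the 12141 genes tested. Over the other settings tried, the log2 fold change of SOX4 lay between 0.69 and 0.75. An antisense gene of GENCODE 29, AL512380.2, overlaps the exons of SOX4, and the sources used here do not say whether fragments were counted by strand.

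SOX12 (ENSG00000177732.7, chromosome 20, 325595 to 330224, plus strand) was at 9.83, 11.66 and 11.29 FPKM in siMTA1 libraries 1, 2 and 3, against 10.62, 11.3 and 11.67 FPKM in control libraries 1, 2 and 3. Its groups overlapped, with the lowest value in siMTA1 library 1 and the highest in control library 3. Its log2 fold change was −0.03 (SE 0.07), with an interval of −0.20 to 0.13, and changed sign between settings, from −0.08 to 0.03. The level of SOX4 was 2.39 to 2.91 times that of SOX12 in siMTA1 libraries and 1.47 to 1.59 times in control libraries, and these ratios did not overlap.

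The sequence just ahead of the RefSeq start differs between the 2 SOXC genes, although nothing measured here bears on binding. RefSeq's table on GRCh38.p14 held the region before the start for SOX2, SOX4, SOX12 and SOX13, 4 of the 7 members. In the 250 bases before the start, G and C made up 48.8% in SOX4, 79.2% in SOX12, 60.8% in SOX13 and 68.8% in SOX2, against a median of 58.0% over all 35116 regions of that table. The CCAAT box was searched as CCAAT and its reverse complement ATTGG. It occurred 4 times in SOX4, once each in SOX12 and SOX2 and not in SOX13. Of all regions 32.0% held it at any count, and the share holding it 4 times was not computed. The SOX core ACAAT and the TCF/LEF core CTTTGA, both searched on both strands, were in none of the 4 windows, where 24.6% and 11.2% of all regions held them. The octamer ATGCAAAT, bound by POU factors, was in the SOX12 window and in 1.63% of regions. The GC box GGGCGG, on either strand, was in the SOX12, SOX2 and SOX13 windows, not in that of SOX4, and in 42.6% of regions. The E-box CACGTG and the hypoxia core ACGTG were in none of the 4 windows, and in 6.34% and 18.5% of regions. These motifs were picked after the sequences had been seen, and a match is a description only. The 30 bases around the CCAAT box nearest the RefSeq start are shown because they let the windows be compared, with that box and the octamer in capitals, read 5′ to 3′ on the plus strand. They are chr6:21593721-21593750 for SOX4, chr20:325343-325372 for SOX12 and chr3:181711865-181711894 for SOX2.
SOX4: ataaagaggcgcgaggcggaATTGGggtct
SOX12: ccggcggccagcgATTGGgagATGCAAATa
SOX2: ccgccgcgcgctgATTGGtcgctagaaacc
The box began 10 bases before the RefSeq start in SOX4, 196 bases before it in SOX12 and 47 bases before it in SOX2. RefSeq starts SOX4 983 bases downstream of the GENCODE 29 start, so all 250 bases of that window lie within a GENCODE exon.

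SOX9 and SOX8 are SOXE factors, which can bind DNA as dimers and are known from cartilage, testis and neural crest as well as gut. SOX9 (ENSG00000125398.5, chromosome 17, 72121020 to 72126420, plus strand) was at 40.35, 42.43 and 45.41 FPKM in siMTA1 libraries 1, 2 and 3, against 44.3, 42.83 and 42.14 FPKM in control libraries 1, 2 and 3. The siMTA1 libraries held both the lowest and the highest SOX9 value. The log2 fold change of SOX9 was −0.01 (SE 0.06), with an interval of −0.15 to 0.12, and it changed sign between settings, from −0.06 to 0.04. SOX4 stood at 0.607 to 0.710 of the SOX9 level in siMTA1 libraries and at 0.382 to 0.406 in control libraries. The antisense RNA SOX9-AS1, whose gene spans SOX9 without sharing exons in GENCODE 29, was at 0.19 to 0.26 FPKM in siMTA1 libraries and 0.17 to 0.26 FPKM in control libraries.

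SOX8 (ENSG00000005513.9, chromosome 16, 981808 to 986979, plus strand) was at 4.19, 3.61 and 4.58 FPKM in siMTA1 libraries 1, 2 and 3, against 4.02, 3.64 and 3.49 FPKM in control libraries 1, 2 and 3. SiMTA1 libraries 1 and 3 were above all control libraries and siMTA1 library 2 was not. The log2 fold change of SOX8 was 0.12 (SE 0.08, interval −0.07 to 0.30). The level of SOX8 was 0.0851 to 0.104 of the SOX9 level in siMTA1 libraries and 0.0828 to 0.0907 in control libraries, which overlap.

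SOX13 is the SOXD member found here, a group whose proteins have a coiled coil for pairing and no activation domain of their own. SOX13 (ENSG00000143842.14, chromosome 1, 204073115 to 204127743, plus strand) was at 7.07, 7.1 and 7.76 FPKM in siMTA1 libraries 1, 2 and 3, against 5.67, 5.69 and 7.51 FPKM in control libraries 1, 2 and 3. Control library 3 alone reached the siMTA1 range, and the other 2 control libraries lay below it. The log2 fold change of SOX13 was 0.20 (SE 0.09, interval −0.01 to 0.41), and 0.31 without control library 3, where SOX13 passed the threshold, as it did with array weights. The other SOXD genes, SOX5 and SOX6, were at 0.05 FPKM or lower in every library.

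**Figure D2:**
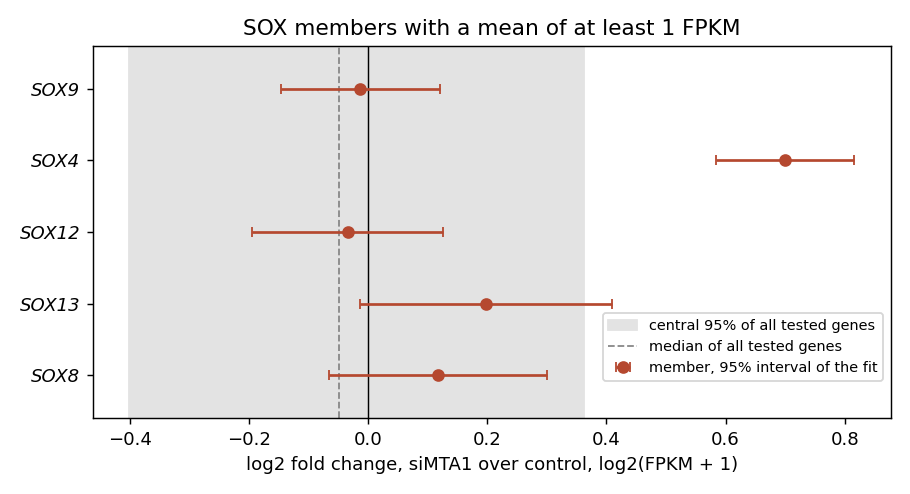
Log2 fold change (siMTA1 over control, on the log2(FPKM + 1) scale) of the 5 members with a mean of at least 1 FPKM, with 95% intervals. The grey band holds the central 95% of all 12141 tested genes, −0.40 to 0.36, and SOX4 at 0.70 lies outside it, while SOX9, SOX12, SOX13 and SOX8 lie inside.

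SOX2 and SOX15 were at or near 0 and were not tested, because their mean was under 1 FPKM. SOX2, a SOXB1 factor of pluripotent and neural progenitor cells (ENSG00000181449.3, chromosome 3, 181711924 to 181714436), was at 0.08, 0.04 and 0.00 FPKM in siMTA1 libraries 1, 2 and 3, against 0.04, 0.06 and 0.02 FPKM in control libraries 1, 2 and 3. With the GENCODE 29 length and the implied depth, that is 0 to 12 fragments per siMTA1 library and 3 to 9 per control library. The groups overlapped and no difference was detectable at this depth. SOX2-OT, a noncoding RNA whose gene spans SOX2 on the same strand, was as low, at 0.01 to 0.06 FPKM in siMTA1 libraries and 0.02 to 0.04 FPKM in control libraries.

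SOX15, the SOXG member (ENSG00000129194.7, chromosome 17, 7588178 to 7590170, minus strand), was at 0.19, 0.11 and 0.15 FPKM in siMTA1 libraries 1, 2 and 3, against 0.40, 0.13 and 0.26 FPKM in control libraries 1, 2 and 3. The groups overlapped, and the values stand for about 11 to 17 fragments per siMTA1 library and 11 to 27 per control library. MPDU1, on the opposite strand, shares exon positions with SOX15 and was at 4.70 to 5.30 FPKM in siMTA1 libraries and 5.83 to 6.51 FPKM in control libraries. The part of MPDU1 fragments in the SOX15 values was not tested.

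Among the 5 members tested, 1 passed the threshold (limma, adjusted p under 0.05), SOX4, and it was higher with siMTA1. Of all 12141 tested genes 18.2% passed, 6.13% higher and 12.1% lower, and nothing is read from the members' count because they were chosen with this contrast known. The 744 higher and 1463 lower genes became 1000 and 939 with upper-quartile scaling, 1011 and 895 with quantile normalization and 1128 and 802 with median centring. The median log2 fold change was 0.12 over the 5 tested members and −0.05 over all tested genes. The groups did not overlap in 1 of the 5, and in 39.1% of all tested genes.

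The 7 members summed to 90.3, 92.8 and 96.7 FPKM in siMTA1 libraries 1, 2 and 3, against 82.0, 80.2 and 82.2 FPKM in control libraries 1, 2 and 3. SOX4 supplied 28.5% to 31.7% of that sum in siMTA1 libraries and 20.6% to 20.8% in control libraries. SOX9 supplied 44.7% to 46.9% in siMTA1 libraries and 51.3% to 54.0% in control libraries. The mean sum was 93.3 ± 3.23 FPKM with siMTA1 and 81.5 ± 1.09 FPKM in control (SD, n = 3 each), while the mean level of SOX4 was 28.0 ± 0.55 and 16.9 ± 0.28 FPKM.

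**Figure D3:**
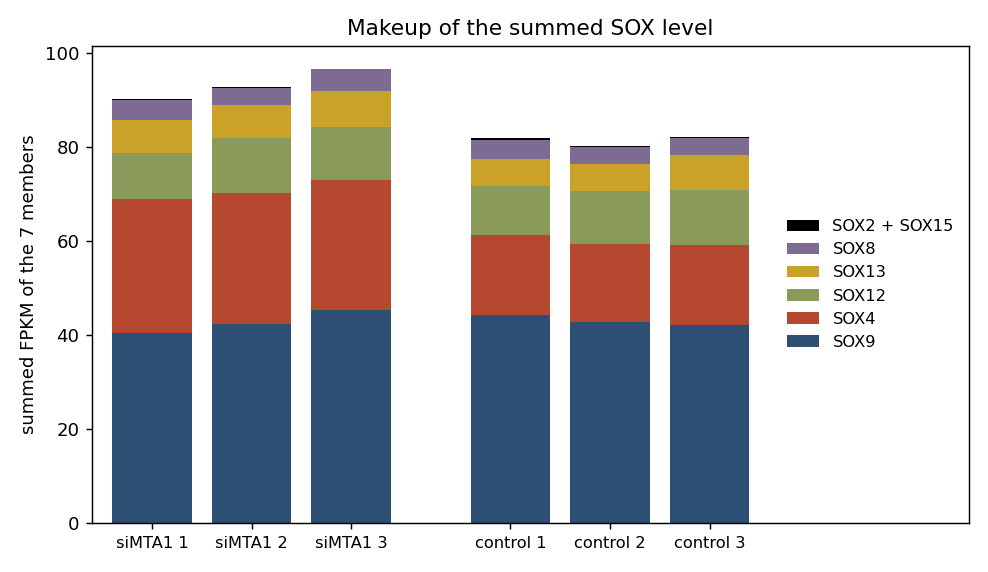
Summed FPKM of the 7 SOX members in each library, stacked by gene, with siMTA1 libraries left and control libraries right. The SOX4 layer is 27.55 to 28.63 FPKM thick in siMTA1 libraries and 16.56 to 17.10 FPKM in control libraries, and the SOX9 layer at the base is of like thickness in both groups.

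The 9 other SOX genes in the table, SOX1, SOX5, SOX6, SOX7, SOX10, SOX14, SOX18, SOX21 and SOX30, were all under the 1 FPKM mean needed for the test. SOX18, known from endothelium and listed highest of them, was at 0.61 to 0.84 FPKM in siMTA1 libraries and 0.61 to 0.79 FPKM in control libraries. SOX7, also of the SOXF group, was at 0.12 to 0.19 FPKM in siMTA1 libraries and 0.11 to 0.13 FPKM in control libraries. SOX14 and SOX21 were listed at 0 in all 6 libraries, and SOX1, SOX5 and SOX10 did not exceed 0.01 FPKM. The 7 members held 98.9% to 99.1% of the summed FPKM of these 16 SOX genes in siMTA1 libraries and 98.8% to 99.0% in control libraries.

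Of the 3 tested HMG-box factors that carry Wnt signals together with beta-catenin, TCF7L2 and TCF7L1 were higher with siMTA1 and TCF7 did not pass. LEF1 was at 0.02 FPKM or lower, and the beta-catenin gene CTNNB1 was at 33.9 ± 1.25 FPKM with siMTA1 and 35.7 ± 1.28 FPKM in control (SD, n = 3 each). TCF7L2 was at 14.12, 15.19 and 14.54 FPKM in siMTA1 libraries 1, 2 and 3, against 11.42, 11.2 and 11.28 FPKM in control libraries 1, 2 and 3 (log2 fold change 0.34, SE 0.05, limma adjusted p = 0.00398). TCF7L1 was at 6.49 ± 0.618 FPKM with siMTA1 and 5.12 ± 0.361 FPKM in control (SD, n = 3 each), without overlap (log2 fold change 0.29, adjusted p = 0.0280). Its call ended without siMTA1 library 2 or 3 (adjusted p = 0.0528 and 0.0754), on leaving out control library 1 or 2 (adjusted p = 0.0699 and 0.0865) and where no filter was applied (adjusted p = 0.125). The list with CTNNB1 thus had 2 of 4 tested genes higher and 0 lower. Over all tested genes 6.13% were higher and 12.1% lower, and this list is too small to set against that.

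Among 18 tested genes of other HMG-box proteins, 2 were higher, 3 lower and 13 did not pass, against 6.13% higher and 12.1% lower over all tested genes. HMGB2, a chromatin protein abundant in dividing cells, was at 137.31 to 148.87 FPKM with siMTA1 and 96.54 to 105.31 FPKM in control (log2 fold change 0.51, SE 0.06, limma adjusted p = 0.000734), and its relative HMGB3 had a log2 fold change of 0.28 (adjusted p = 0.0133). UBTF, which binds ribosomal DNA for RNA polymerase I, had a log2 fold change of −0.25 (adjusted p = 0.0172), and BBX and HBP1 were the other lower genes. The HMGB3 call ended without siMTA1 library 2 (adjusted p = 0.0554) and where no filter was applied (adjusted p = 0.0540). The UBTF call ended without siMTA1 library 1 or 2 (adjusted p = 0.0561 and 0.0642), on leaving out control library 2 (adjusted p = 0.0777) and with no filter (adjusted p = 0.0523). The median log2 fold change of the 18 was 0.03.

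**Figure D4:**
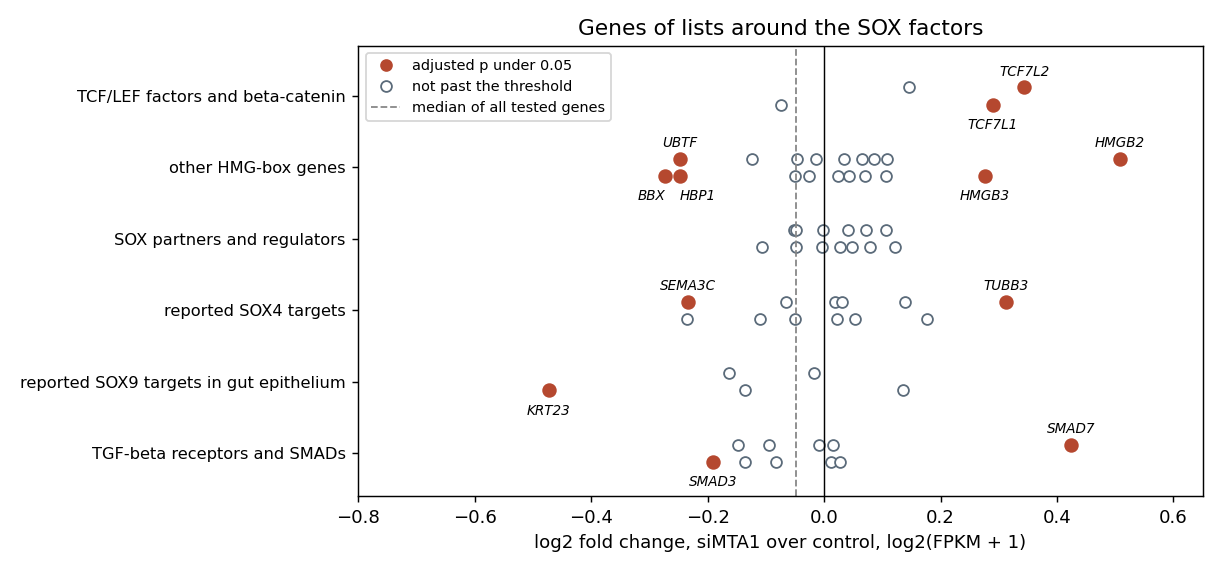
Log2 fold change (siMTA1 over control, log2(FPKM + 1) scale) of each tested gene in 6 lists around the SOX factors, 1 point a gene, filled where the adjusted p was under 0.05. TCF7L2, TCF7L1, HMGB2, HMGB3, TUBB3 and SMAD7 lie to the right among filled points, and KRT23, BBX, UBTF, HBP1, SEMA3C and SMAD3 to the left.

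Of 13 tested genes whose products bind, modify or import SOX proteins, 0 passed the limma threshold and 0 had an unadjusted p under 0.05. Over all tested genes 18.2% passed, so few calls are to be had in a list of this size. KPNB1, importin beta, had the highest level, at 83.1 ± 3.05 FPKM with siMTA1 and 76.3 ± 3.10 FPKM in control (SD, n = 3 each, log2 fold change 0.12, adjusted p = 0.156). FBXW7, the ubiquitin ligase subunit that targets SOX9, was at 3.48 FPKM with siMTA1 and 3.33 FPKM in control on average, and SDCBP, a binding partner of SOX4, at 13.7 and 14.8 FPKM.

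Of 12 tested genes listed as SOX4 targets from reports in other cells, 1 was higher and 1 lower, a share near the 18.2% of all tested genes. TUBB3, the neuronal tubulin, was at 33.9 ± 1.73 FPKM with siMTA1 and 27.1 ± 0.565 FPKM in control (log2 fold change 0.31, limma adjusted p = 0.00723), and a further TUBB3 entry of the table was at 0.65 to 0.78 FPKM with siMTA1 and 0.32 to 0.36 FPKM in control. SEMA3C, a secreted guidance protein, was at 1.91 to 2.17 FPKM with siMTA1 and 2.51 to 2.67 FPKM in control (log2 fold change −0.23, adjusted p = 0.0352). Its call ended without siMTA1 library 1, 2 or 3 (adjusted p = 0.0516, 0.111 and 0.0705) and on leaving out control library 1, 2 or 3 (adjusted p = 0.0829, 0.0876 and 0.0675). The SEMA3C call also ended with no filter (adjusted p = 0.114), upper-quartile scaling (0.0581), quantile normalization (0.0537) and median centring (0.0811). EZH2 and TEAD2, often named as SOX4 targets, did not pass, and the median of the 12 was 0.02.

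Of the genes listed as SOX9 targets in gut epithelium, 5 of 10 were tested, 1 was lower and 0 higher, a share near the 18.2% of all tested genes. KRT23, a type I keratin gene, was at 10.43, 10.51 and 9.97 FPKM in siMTA1 libraries 1, 2 and 3, against 14.69, 15.83 and 13.61 FPKM in control libraries 1, 2 and 3 (log2 fold change −0.47, SE 0.07, limma adjusted p = 0.00207). CDX2, an intestinal identity factor that SOX9 is reported to repress, was at 4.14 FPKM with siMTA1 and 4.76 FPKM in control on average and did not pass. MUC2, LGR5, TLE4 and IGFBP4 did not exceed 0.02 FPKM in any library. Of the cartilage genes that SOX9 activates, 3 of 13 were tested and 0 passed limma's threshold or an unadjusted p under 0.05, and COL9A3 had the highest level at 16.9 ± 0.644 FPKM with siMTA1 and 15.5 ± 0.935 FPKM in control. With array weights COL9A3 passed (limma adjusted p = 0.0390). COL2A1 and ACAN, the best known of these SOX9 targets, did not exceed 0.01 FPKM.

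Most genes of the intestinal lineages in which SOX4 and SOX9 act were under the 1 FPKM mean. Of 11 listed stem and Paneth genes, 3 were tested and 0 passed (1 at an unadjusted limma p under 0.05), and RGMB, the highest, was at 6.69 ± 0.165 FPKM with siMTA1 and 6.72 ± 0.212 FPKM in control. Of 12 tuft and secretory genes 1 was tested, GFI1, at 1.97 to 2.06 FPKM with siMTA1 and 1.79 to 1.92 FPKM in control, and 0 passed, also at an unadjusted p under 0.05. In the pluripotency list 2 of 10 genes were tested, KLF4 and PROM1. KLF4, also a factor of gut epithelium, was higher at 15.7 ± 0.519 FPKM with siMTA1 and 11.1 ± 0.452 FPKM in control (log2 fold change 0.47, limma adjusted p = 0.00116). PROM1 was at 7.78 ± 0.550 FPKM with siMTA1 and 8.95 ± 0.709 FPKM in control and did not pass (log2 fold change −0.18, adjusted p = 0.113). Over all tested genes 18.2% passed, 6.13% higher and 12.1% lower, and these lists are too small to set against that. POU5F1, NANOG and LIN28A, which act with SOX2 in pluripotent cells, did not exceed 0.04 FPKM.

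Of 10 tested genes of TGF-beta receptors and SMADs, a pathway that induces SOX4 in other epithelial cells, 1 was higher and 1 lower, again near the 18.2% of all tested genes. SMAD7, the inhibitory SMAD, was at 2.32, 2.69 and 2.52 FPKM in siMTA1 libraries 1, 2 and 3, against 1.65, 1.68 and 1.51 FPKM in control libraries 1, 2 and 3 (log2 fold change 0.42, SE 0.07, limma adjusted p = 0.00429). SMAD3 had a log2 fold change of −0.19 (adjusted p = 0.0416), a call that ended without siMTA1 library 1 or 2 (adjusted p = 0.120 and 0.117), on leaving out control library 1, 2 or 3 (adjusted p = 0.0606, 0.0963 and 0.107), with no filter (0.0930), with no intensity trend (0.0550) and under upper-quartile scaling (0.0984), quantile normalization (0.0804) and median centring (0.114).

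The tested genes most like SOX4 over the 6 libraries were FKBP5, KRT13 and IER2, with Pearson's r of 0.999, 0.999 and 0.997 on log2(FPKM + 1). FKBP5, a co-chaperone of steroid receptors, was at 7.11 to 7.38 FPKM with siMTA1 and 4.63 to 4.69 FPKM in control. KRT13 was at 6.47 to 8.06 FPKM with siMTA1 and 0.45 to 0.66 FPKM in control. IER2 was at 68.06 to 68.78 FPKM with siMTA1 and 53.10 to 54.71 FPKM in control. A high r thus does not mean a change of like size. For SOX4, 30 of the tested genes reached an r of 0.99. The genes most like SOX9 were NUMB, SAMD1 and AC009299.3, with r of 0.970, 0.962 and 0.961, over a range of SOX9 of only 40.35 to 45.41 FPKM. These correlations share the 6 libraries and their group structure and describe them only.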

How the data were processed

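The authors deposited 1 table of FPKM for 36651 genes in 6 libraries, printed to 2 decimals. Libraries were directional, paired-end and made from polyA RNA, per the labels' protocols. Cutadapt, TopHat2, edgeR and GRCh38 appear in the submitters' processing notes with neither version nor role. How fragments were counted, by which strand setting and annotation release, the sources used here do not give. Genes averaging 1 FPKM or more (12141) were tested with limma 3.58.1 in R 4.3.3 on log2(FPKM + 1), with an intensity trend, without covariates, two-sided and adjusted by Benjamini and Hochberg over all of them. A fold change on that scale understates the change of low genes. Members and lists were chosen with earlier results of these data known. Named were the members, MTA1, other SOX genes, and from each further list up to 3 genes past the threshold with the smallest adjusted p, or its most abundant tested gene. Depth was implied from genes under 150 bases, where 94.9% to 97.4% of low values were whole within 0.05 fragments plus rounding. Positions and exon lengths are from GENCODE 29, sequences from RefSeq. The fit was tested on simulated data. Alternatives were other pseudocounts, filters, scalings and limma settings, a replicate block and each library left out. Python 3.11.15, pandas 2.3.3 and matplotlib 3.10.9 were used.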

Additional observations from a re-analysis of the deposited data

How the results depend on the processing

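The count of 2207 changed genes became 4049 with array weights, 676 with no filter on low values and between 1046 and 1780 with 1 library left out, lowest without control library 2 and, at 1068, without siMTA1 library 2. The count of SOX members past the threshold, 1, became 2 with array weights and was 1 to 2 with 1 library left out. The further member was SOX13 in both cases, with array weights and without control library 3. SOX4 was past the threshold in all 16 alternatives. These refit the libraries whose differences were known when the members were chosen, so they describe SOX4 and do not test it. MTA1 stayed lower and past the threshold in all 16, with a log2 fold change of −0.58 to −0.49. The labels do not say whether the numbers shared by replicates pair the samples. Deviations of same-numbered libraries correlated at 0.33, 0.02 and 0.22, which does not settle it. With the replicate block 3031 genes and the same 1 member passed. KRT8 and KRT18, lower epithelial markers, also lost their calls with no filter (adjusted p = 0.179 and 0.223), and KRT18 under upper-quartile scaling (0.0767) and median centring (0.0855). SOX2 and SOX15 were not past the threshold with no filter either, and SOX8 had no value where a mean of 5 FPKM was required. The cause of these changes was not tested. Values of SOX2 and SOX15 rest on few fragments and 2 decimals, which limits what they can show.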

Other observations

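CEACAM1, an adhesion molecule listed among SOX9 targets, and POU2F3, the tuft cell factor, were under the 1 FPKM mean needed for the test, and both were singled out after their values were seen. CEACAM1 was at 0.44, 0.38 and 0.29 FPKM in siMTA1 libraries 1, 2 and 3, against 0.70, 0.83 and 1.05 FPKM in control libraries 1, 2 and 3. POU2F3 was at 0.31, 0.31 and 0.22 FPKM in siMTA1 libraries 1, 2 and 3, against 0.10, 0.18 and 0.17 FPKM in control libraries 1, 2 and 3. The groups did not overlap for either gene. That held for 39.1% of all tested genes, but neither gene was in the fit of genes averaging 1 FPKM or more. The share among genes under that mean was not computed. Some other listed genes under that mean did not overlap either, and others did. From the tuft and secretory list, TRPM5 was at 0.02 to 0.07 FPKM with siMTA1 and 0.02 to 0.05 FPKM in control, which overlap. AVIL overlapped too, at 0.14 to 0.23 FPKM with siMTA1 and 0.10 to 0.24 FPKM in control. Among those without overlap, DCLK1 was at 0.11 to 0.13 FPKM with siMTA1 and 0.01 to 0.04 FPKM in control. MMP7 was at 0.15 to 0.30 FPKM with siMTA1 and 0.37 to 0.50 FPKM in control.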
